A study of Homo sapiens with 6 samples.

Results

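The nuclear-encoded subunits of oxidative phosphorylation (OXPHOS) were followed in the human pancreatic cancer line AsPC-1 after transfection of an siRNA against VCPIP1, an ubiquitin-removing enzyme that works with the ATPase p97/VCP. The subunits were chosen by gene symbol alone. They comprised the NDUFA, NDUFB, NDUFC, NDUFS and NDUFV genes of complex I, SDHA to SDHD of complex II, the UQCR genes of complex III, the COX4 to COX8 genes of complex IV and the ATP5 genes of complex V. The rule found 83 of the 15832 genes in the table, of which 36 were counted with complex I, 4 with complex II, 9 with complex III, 15 with complex IV and 19 with complex V. NDUFA4, which carries a complex I name, was counted with complex IV, where its protein is found.

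The respiratory chain moves electrons from NADH (complex I) and succinate (complex II) through ubiquinone and complex III to cytochrome c, and complex IV hands them to oxygen. Complexes I, III and IV pump protons across the inner mitochondrial membrane, and complex V, the ATP synthase, uses the gradient to make ATP. All subunits of complex II come from nuclear genes, whereas the other complexes join nuclear-encoded subunits to a few made inside the mitochondrion, and each complex holds its subunits in fixed proportions. The 13 subunits encoded in mitochondrial DNA had no entry under their MT- symbols among the deposited genes and so were not analysed here.

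Cells had been transfected for 48 h with an siRNA against VCPIP1 (siVCPIP1, 3 libraries) or with a control siRNA (siControl, 3 libraries). Both groups are the same cell line without any other treatment named in the labels, and the sources used here do not give the siRNA sequences. Whether replicate libraries stem from separate cultures is not stated in the labels, and p-values therefore reflect the spread among these 6 libraries, which may be technical. Values were TPM, the length-corrected share of a gene among 1000000 transcripts, and the read depth behind them is unknown. Where 3 values are given for a group, they are those of replicates 1, 2 and 3.

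VCPIP1 itself had 0.12, 0.11 and 0.27 TPM in siVCPIP1 libraries and 2.93, 3.06 and 2.24 TPM in siControl libraries. The siVCPIP1 mean of VCPIP1 was 6.08% of the siControl mean. On TPM as deposited the log2 fold change of VCPIP1, taken on TPM + 1 as for all genes tested, was -1.68 (SE 0.13; limma, adjusted p = 2.00e-05). The added 1 makes that fold change smaller at so low a level. The two-sided exact permutation p was 0.1, the smallest that 3 against 3 libraries can give. After removal of a trend on GC content and length from each library, the log2 fold change of VCPIP1 was 0.26 (limma, adjusted p = 0.0654), which is of the opposite sign and was not called. That trend was fitted over all genes on log2(TPM + 1), in which the fall of so low a gene is already shrunk. The corrected value therefore cannot show whether VCPIP1 was reduced. The whole distribution of TPM differed between the groups, with a median over all genes of 1.59 ± 0.58 TPM in siVCPIP1 and 6.77 ± 0.63 TPM in siControl (SD, n = 3 each). The median log2 fold change over tested genes was -1.12. Replicate 3 of siVCPIP1 lay nearest to the siControl mean in 71 of 79 tested subunits (89.9%), and in 84.0% of all tested genes. Of 9 markers of pancreatic ductal epithelium, 5 were called higher and 4 lower, among them the keratins KRT8, KRT18 and KRT19 (higher) and EPCAM and CDH1 (lower), and the 9 summed to 20980 to 23790 TPM in siVCPIP1 libraries and 13881 to 16001 TPM in siControl libraries. The fibroblast markers COL1A1, COL1A2 and DCN stayed under 1 TPM on average in both groups, but LUM, also on that list, had 2.01 ± 1.47 TPM in siVCPIP1 and 56.0 ± 11.7 TPM in siControl (SD, n = 3 each). No endothelial or acinar marker reached the level for testing, and of the leukocyte markers the defining PTPRC had 0.23 TPM in siVCPIP1 and 0.41 TPM in siControl, while CD68 had 140 TPM in siVCPIP1 and 145 TPM in siControl.

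The c subunit of the ATP synthase, which forms the rotating ring in the membrane, is made from 3 genes whose levels differed in direction. ATP5MC1, ATP5MC2 and ATP5MC3 each encode a longer precursor, but their last 75 codons translate to the same residues. The sequences are shown because the same protein segment is written in 3 different ways, and because reads from it can be told apart only at the bases that differ. In the last 225 coding bases, given 5′ to 3′ from GENCODE release 29 transcripts on GRCh38, capitals mark the 52 positions at which the 3 genes are not all alike, and 47 of these are at the third position of a codon.
ATP5MC1: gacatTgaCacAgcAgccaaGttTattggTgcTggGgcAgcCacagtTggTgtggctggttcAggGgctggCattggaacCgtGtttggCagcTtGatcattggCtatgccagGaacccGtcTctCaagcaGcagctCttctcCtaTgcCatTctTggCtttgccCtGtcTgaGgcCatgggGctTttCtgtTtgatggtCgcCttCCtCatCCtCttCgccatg
ATP5MC2: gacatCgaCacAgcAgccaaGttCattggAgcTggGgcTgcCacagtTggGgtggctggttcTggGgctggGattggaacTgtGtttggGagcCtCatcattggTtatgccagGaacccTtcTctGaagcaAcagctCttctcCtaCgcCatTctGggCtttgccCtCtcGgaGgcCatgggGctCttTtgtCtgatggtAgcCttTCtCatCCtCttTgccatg
ATP5MC3: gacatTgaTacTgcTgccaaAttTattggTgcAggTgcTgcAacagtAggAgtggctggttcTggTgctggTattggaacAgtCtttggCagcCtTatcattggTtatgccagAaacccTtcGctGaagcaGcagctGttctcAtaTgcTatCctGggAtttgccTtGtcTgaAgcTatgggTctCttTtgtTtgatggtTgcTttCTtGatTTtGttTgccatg
The ATP5MC1 segment lies on the plus strand of chr17:48895222-48895766, that of ATP5MC2 on the minus strand of chr12:53665317-53669260 and that of ATP5MC3 on the minus strand of chr2:175178291-175179169, all exonic coding sequence in spans that include introns. ATP5MC1 and ATP5MC2 were identical at 88.9% of the bases, and ATP5MC3 was identical to either of them at 81.3%. The third codon position was G or C in 62.7% of codons in ATP5MC1, 61.3% in ATP5MC2 and 38.7% in ATP5MC3.

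Of the 83 subunits, 79 passed the filter of a mean of at least 1 TPM. The 4 that did not were UQCRHL, COX7A1, COX8C and ATP5MGL, each under 1 TPM in every library. The subunits did not move as a block: 22 were called higher in siVCPIP1, 45 lower and 12 in neither direction, on TPM as deposited (limma, adjusted p under 0.05). Of all tested genes 15.0% were called higher and 66.0% lower, 81.0% in all, so a call by itself is the common outcome in this comparison. In 70 of the 79 subunits the groups did not overlap, against 86.0% of all tested genes. The median log2 fold change of the subunits was -0.69, against -1.12 over all tested genes, with an SD across genes of 1.29 in both. That equal spread depends on the setting. With 0.1 TPM added in place of 1, the SD was 1.33 for the subunits and 1.61 for all tested genes. Without a filter it was 1.27 for the subunits and 1.17 for all genes. In bulk RNA, fewer cells of a type and less RNA per cell cannot be told apart, and neither can a change in one gene and a change in the rest of the library, since TPM is a share.

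As a share of all TPM the 83 subunits hardly differed between the groups. They summed to 28206, 29050 and 27559 TPM in siVCPIP1 and 28526, 28694 and 29197 TPM in siControl, or 2.83% ± 0.07 and 2.88% ± 0.03 of all TPM (SD, n = 3 each). The complexes differed from each other, however: the summed siVCPIP1 level was 1.29 times that of siControl for complex I, 1.02 times for complex IV, 0.737 times for complex III, 0.735 times for complex V and 0.273 times for complex II. These sums weigh subunits by their level and have no test, and their direction rests on the scaling: after median-of-ratios scaling the log2 ratio was -0.70 for complex II and above 0 for the others (0.79 to 1.63).

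**Figure D1:**
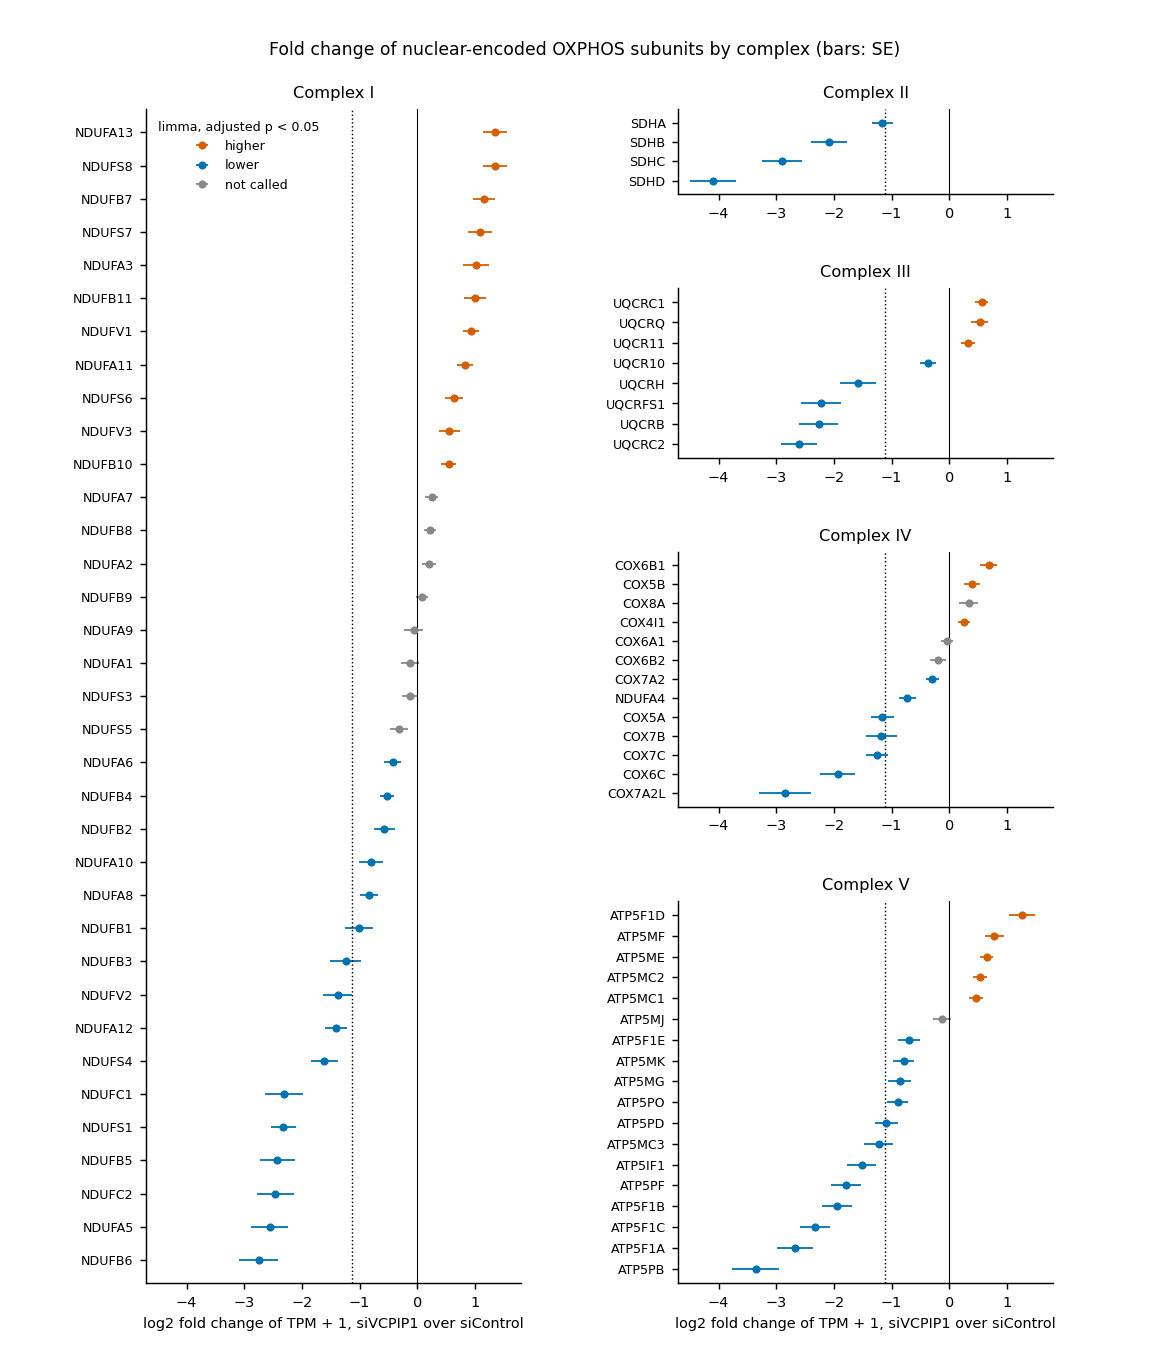
Log2 fold change of TPM + 1 (horizontal axis, siVCPIP1 over siControl, bars are SE, 3 libraries a group) for 78 of the 79 tested subunits, in one panel per complex. Orange marks subunits called higher, blue lower and grey neither, and the dotted line is the median of all tested genes at -1.12. Complexes I, III, IV and V each hold orange and blue subunits, and all 4 subunits of complex II are blue.

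**Figure D2:**
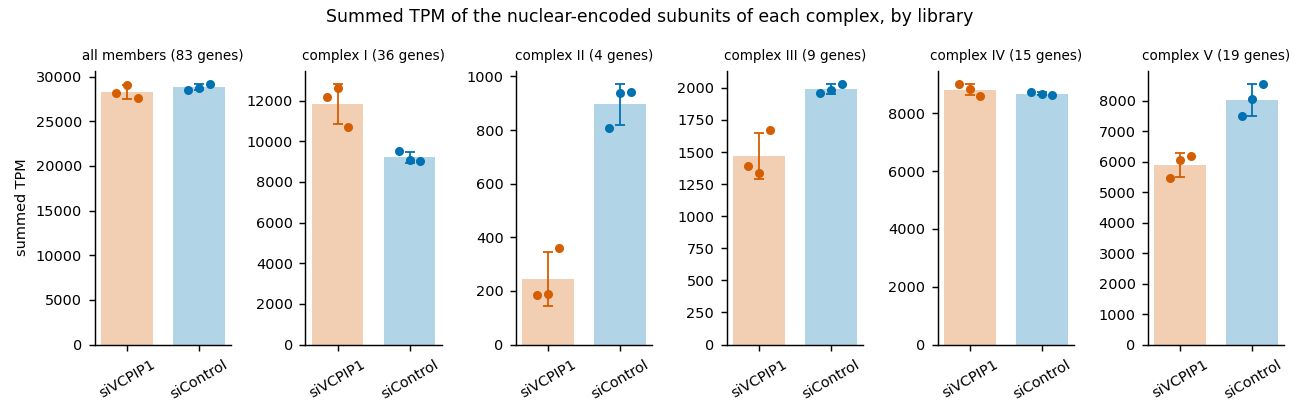
Summed TPM of the nuclear-encoded subunits in each library (points), with the mean (bar) and SD (error bar) of 3 libraries a group, siVCPIP1 left and siControl right, each panel on its own axis from 0. The sum over all 83 genes overlaps between the groups, that of complex I is higher in each siVCPIP1 library, and those of complexes II, III and V are lower in each, of which complexes III and V turn higher under median-of-ratios scaling.

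Complex I, the NADH dehydrogenase, split into subunits called higher and subunits called lower. Of its 36 nuclear-encoded subunits 11 were called higher, 17 lower and 8 neither, and the log2 fold changes ran from -2.75 (NDUFB6) to 1.35 (NDUFA13) around a median of -0.22. The summed TPM was 12171, 12625 and 10723 in siVCPIP1 and 9520, 9061 and 9048 in siControl, with no overlap, so the sum was higher although more subunits were called lower than higher. Both arms of the complex were mixed. In the matrix arm, where NADH is oxidised, 5 of 16 subunits were higher and 7 lower, and in the membrane arm 6 of 20 were higher and 10 lower.

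The nuclear-encoded core subunits, which between them carry the flavin and the iron-sulphur clusters, held calls in both directions. NDUFV1, the subunit that binds NADH and the flavin, had 1271, 1249 and 1019 TPM in siVCPIP1 and 698, 589 and 564 TPM in siControl, for which the log2 fold change came to 0.93 ± 0.14 (SE; limma, adjusted p = 0.000236). NDUFS8, which carries iron-sulphur clusters near the quinone site, had 1474, 1559 and 970 TPM in siVCPIP1 and 624, 495 and 436 TPM in siControl, for which the log2 fold change came to 1.35 ± 0.21 (SE; limma, adjusted p = 0.000291). Its neighbour NDUFS7 rose by 1.09 on the log2 scale (SE 0.20; limma, adjusted p = 0.000999). For each of the 3 the lowest siVCPIP1 library, replicate 3, was above the highest siControl library.

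NDUFS1, the largest core subunit, which also carries iron-sulphur clusters, moved the other way. It had 1.64, 1.78 and 2.92 TPM in siVCPIP1 and 13.8, 16.1 and 13.1 TPM in siControl, for which the log2 fold change came to -2.32 ± 0.22 (SE; limma, adjusted p = 2.34e-05). The groups were far apart. NDUFV2, the partner of NDUFV1 in the NADH-oxidising module, had a log2 fold change of -1.38 on TPM as deposited (limma, adjusted p = 0.000757) but of 0.73, called higher, after correction for coding GC content and length. NDUFS3 had 198, 197 and 252 TPM in siVCPIP1 and 223, 232 and 249 TPM in siControl, which overlap, and was not called. The ratio of NDUFS1 to NDUFV1 within a library, which a single factor per library leaves as it is, was 0.00186 ± 0.000873 in siVCPIP1 and 0.0235 ± 0.00382 in siControl (SD, n = 3 each), without overlap. Quantile normalization and the GC and length corrections bring the genes closer: NDUFS1 lay at -0.73 and NDUFV1 at 0.80 after quantile normalization, and they lay at -0.53 and 0.56 with the whole-transcript trend removed. Coding GC content was 45.1% in NDUFS1 and 60.5% in NDUFV1.

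Among the 29 accessory subunits, which surround the core and are needed for its assembly and stability, 8 were called higher and 14 lower. NDUFA13, also known as GRIM-19, showed the largest rise, level with that of NDUFS8, with 1533, 1621 and 999 TPM in siVCPIP1 and 640, 474 and 491 TPM in siControl (log2 fold change 1.35, SE 0.20; limma, adjusted p = 0.000266). NDUFB6, a membrane-arm subunit, showed the largest fall of complex I, with 8.14, 8.10 and 21.8 TPM in siVCPIP1 and 73.0, 92.2 and 82.6 TPM in siControl (log2 fold change -2.75, SE 0.34; limma, adjusted p = 7.95e-05). In both genes replicate 3 was the siVCPIP1 library nearest to siControl. NDUFB9, the most abundant complex I subunit in siControl, had 1174, 1168 and 1294 TPM in siVCPIP1 and 1144, 1078 and 1204 TPM in siControl, which overlap, and was not called.

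Complex II, succinate dehydrogenase, was the complex in which all subunits were called lower on TPM as deposited, against 66.0% of all tested genes. It links the citric acid cycle to the chain, with the flavoprotein SDHA and the iron-sulphur protein SDHB in the matrix and SDHC and SDHD as membrane anchors. SDHD had 5.84, 5.12 and 18.8 TPM in siVCPIP1 and 148, 187 and 147 TPM in siControl, for which the log2 fold change came to -4.10 ± 0.40 (SE; limma, adjusted p = 2.67e-05), the largest fall of any subunit. SDHC had 13.01, 13.3 and 35.7 TPM in siVCPIP1 and 126, 148 and 161 TPM in siControl (log2 fold change -2.90, SE 0.34; limma, adjusted p = 6.65e-05). SDHB had 45.5, 50.9 and 115 TPM in siVCPIP1 and 241, 283 and 309 TPM in siControl (log2 fold change -2.08, SE 0.31; limma, adjusted p = 0.000274). In all 3 genes the groups were apart, with siVCPIP1 replicate 3 the highest of its group.

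SDHA, which binds the flavin and oxidises succinate, was the least changed of the 4. It had 121, 118 and 191 TPM in siVCPIP1 and 293, 321 and 326 TPM in siControl (log2 fold change -1.16, SE 0.19; limma, adjusted p = 0.000444), close to the median of all genes. After median-of-ratios scaling it lay at 0.068 and was not called. The proportions of the subunit mRNAs also differed, while protein is not part of these data. SDHD stood at 0.0634 ± 0.0304 of SDHA in siVCPIP1 and 0.512 ± 0.0656 in siControl, and SDHC at 0.136 ± 0.0444 of SDHA in siVCPIP1 and 0.462 ± 0.0330 in siControl (SD, n = 3 each), both without overlap. The membrane anchors together summed to 18.9, 18.5 and 54.4 TPM in siVCPIP1 and 274, 335 and 308 TPM in siControl, or 0.1001 of the siControl mean, and 0.0611 of it without siVCPIP1 replicate 3. Coding GC content was 53.5% in SDHD, 51.3% in SDHC, 50% in SDHB and 55.7% in SDHA.

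**Figure D3:**
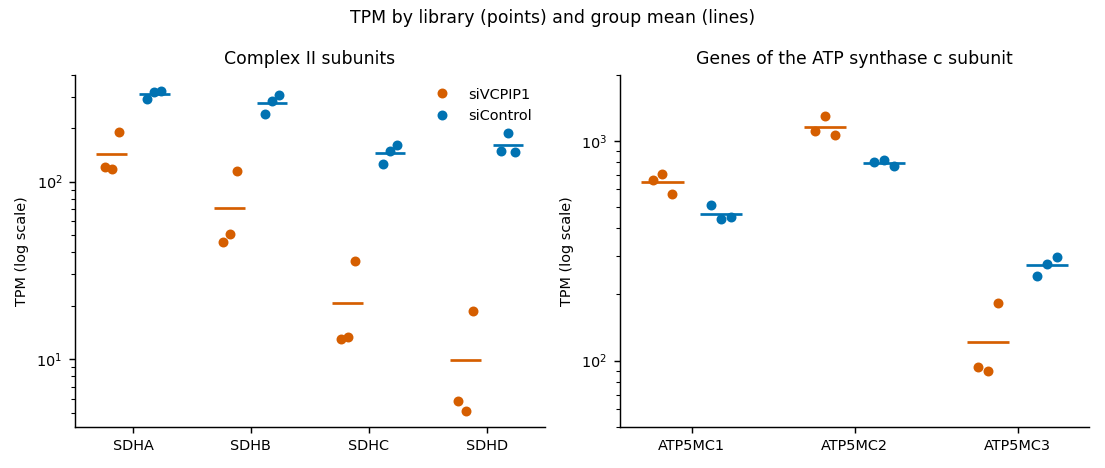
TPM on a log axis in each library (points) with group means (lines), siVCPIP1 in orange left of siControl in blue, for the complex II subunits and for the 3 genes of the ATP synthase c subunit. The gap between the groups widens across SDHA, SDHB, SDHC and SDHD, and ATP5MC3 lies lower in siVCPIP1 while ATP5MC1 and ATP5MC2 lie higher.

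Complex III, which passes electrons from ubiquinol to cytochrome c, had 3 subunits called higher and 5 lower of 8 tested, with a median log2 fold change of -0.98. Its paired core proteins, which support the complex on the matrix side, moved in opposite directions. UQCRC1 had 629, 607 and 584 TPM in siVCPIP1 and 453, 401 and 380 TPM in siControl (log2 fold change 0.56, SE 0.12; limma, adjusted p = 0.00171). UQCRC2 had 24.0, 26.8 and 61.9 TPM in siVCPIP1 and 189, 228 and 223 TPM in siControl (log2 fold change -2.60, SE 0.32; limma, adjusted p = 7.49e-05). The ratio of UQCRC2 to UQCRC1 was 0.0627 ± 0.0375 in siVCPIP1 and 0.525 ± 0.0928 in siControl (SD, n = 3 each), without overlap, and the siVCPIP1 mean was 0.0411 without its replicate 3. Coding GC content was 46.1% in UQCRC2 and 58.3% in UQCRC1. Summed, the pair had 644 ± 9.84 TPM in siVCPIP1 and 625 ± 20.0 TPM in siControl (SD, n = 3 each), so the sum hides the shift between them.

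UQCRFS1, the Rieske iron-sulphur protein, had 12.3, 12.5 and 33.7 TPM in siVCPIP1 and 73.8, 87.6 and 95.3 TPM in siControl (log2 fold change -2.23, SE 0.35; limma, adjusted p = 0.000334). After correction for transcript GC content and length it lay at -0.26 and was not called. UQCRH, the hinge protein and the most abundant subunit of the complex in siControl, had 216, 187 and 477 TPM in siVCPIP1 and 748, 780.5 and 898 TPM in siControl (log2 fold change -1.59; limma, adjusted p = 0.00126). After median-of-ratios scaling it lay at -0.36 and was not called (limma, adjusted p = 0.164). Reads of UQCRH can also match its retrogene UQCRHL, listed at no more than 0.91 TPM. How such reads were counted is not given in the sources used here, so the levels of both genes are uncertain. The accessory subunit UQCRQ rose by 0.53 on the log2 scale (limma, adjusted p = 0.00830).

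Complex IV, cytochrome c oxidase, summed to 9002, 8849 and 8601 TPM in siVCPIP1 and 8744, 8663 and 8623 TPM in siControl, which overlap. That holds for its share of deposited TPM, since after median-of-ratios scaling the log2 ratio of the sums was 1.28. Of 13 tested genes 3 were called higher, 7 lower and 3 neither, with a median log2 fold change of -0.29. COX4I1, the subunit to which ATP binds as a regulator and the most abundant of the complex in siControl, had 2292, 2225 and 2328 TPM in siVCPIP1 and 1944, 1795 and 1989 TPM in siControl (log2 fold change 0.26, SE 0.10; limma, adjusted p = 0.0445). This call was lost whichever library was left out, after quantile normalization (0.14) and after correction for transcript GC content and length (0.030). COX5A, an early-assembling subunit, had 87.5, 97.2 and 145 TPM in siVCPIP1 and 213, 253 and 259 TPM in siControl (log2 fold change -1.16; limma, adjusted p = 0.000527), but 0.064 after median-of-ratios scaling and 0.28, called higher, after correction for transcript GC content and length. Its structural partner COX5B had 653, 583 and 564 TPM in siVCPIP1 and 511, 466 and 396 TPM in siControl (log2 fold change 0.39; limma, adjusted p = 0.0216). That call depended on the libraries used, and was lost on leaving out any of 4 of the 6.

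Several complex IV subunits exist as isoforms, of which cells usually express the ubiquitous one. COX6B1, the ubiquitous isoform of a subunit that faces the intermembrane space, had 1442, 1486 and 1135 TPM in siVCPIP1 and 880, 745 and 895 TPM in siControl (log2 fold change 0.68, SE 0.14; limma, adjusted p = 0.00186). COX6B2, known as the testis isoform, had 34.9, 34.0 and 40.6 TPM in siVCPIP1 and 43.8, 42.02 and 39.7 TPM in siControl, which overlap, and was not called. COX7A1 and COX8C, isoforms of muscle and testis, were at or under 0.34 TPM in every library. The ubiquitous COX6A1 and COX8A, at 1272 TPM or more in every library, were not called. COX7A2L, a relative of COX7A2 that joins complex III to complex IV in supercomplexes, had 20.0, 13.4 and 59.8 TPM in siVCPIP1 and 166, 214 and 188 TPM in siControl (log2 fold change -2.84, SE 0.45; limma, adjusted p = 0.000354). COX7A2 lay at -0.29 on TPM as deposited, and at 0.94, called higher, both under median-of-ratios scaling and after correction for transcript GC content and length.

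Complex V had 5 subunits called higher and 12 lower of 18 tested, with a median log2 fold change of -0.88. The F1 head, which makes ATP, held calls in both directions. ATP5F1B, the catalytic beta subunit and the most abundant of the complex in siControl, had 373, 418 and 799 TPM in siVCPIP1 and 1656, 2040 and 2125 TPM in siControl (log2 fold change -1.95, SE 0.27; limma, adjusted p = 0.000146). ATP5F1A, the alpha subunit that alternates with beta in the head, had 27.4, 33.2 and 68.7 TPM in siVCPIP1 and 213, 282 and 291 TPM in siControl (log2 fold change -2.68, SE 0.31; limma, adjusted p = 5.76e-05). ATP5F1D, the delta subunit of the central stalk, had 807, 861 and 543 TPM in siVCPIP1 and 380, 303 and 233 TPM in siControl (log2 fold change 1.27, SE 0.22; limma, adjusted p = 0.000690). The groups were apart in all 3 genes, and the ratio of ATP5F1B to ATP5F1D was 0.806 ± 0.577 in siVCPIP1 and 6.73 ± 2.37 in siControl (SD, n = 3 each). In single siVCPIP1 libraries that ratio was 0.462, 0.485 and 1.47, and without replicate 3 its mean was 0.473. Coding GC content was 51.3% in ATP5F1B and 68.3% in ATP5F1D.

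The other stalk and regulatory genes were mostly called lower, as were 66.0% of all tested genes. All 4 subunits of the peripheral stalk, which holds the head still, were called lower on TPM as deposited, and they summed to 756 ± 201 TPM in siVCPIP1 and 1713 ± 224 TPM in siControl (SD, n = 3 each). ATP5PB, the stalk's b subunit, had 8.77, 10.3 and 31.4 TPM in siVCPIP1 and 125, 160 and 187 TPM in siControl (log2 fold change -3.36, SE 0.41; limma, adjusted p = 7.82e-05). The stalk subunits ATP5PO and ATP5PD did not keep their direction, with 0.96 and 0.92 after correction for coding GC content and length, both called higher. ATP5IF1, the inhibitor that stops the enzyme from running backwards, had 65.2, 63.5 and 126 TPM in siVCPIP1 and 227, 213 and 259 TPM in siControl (log2 fold change -1.51; limma, adjusted p = 0.000490). After median-of-ratios scaling it lay at -0.29 and was not called (limma, adjusted p = 0.155). ATP5F1C, the gamma subunit of the rotor, had a log2 fold change of -2.33 (limma, adjusted p = 4.18e-05) but of -0.23, not called, after correction for transcript GC content and length.

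The 3 genes of the c subunit, printed above, did not move alike. ATP5MC2 had 1112, 1292 and 1064 TPM in siVCPIP1 and 803, 814 and 765 TPM in siControl (log2 fold change 0.54, SE 0.12; limma, adjusted p = 0.00237). ATP5MC1 had 662, 703 and 573 TPM in siVCPIP1 and 510, 439 and 450 TPM in siControl (log2 fold change 0.47, SE 0.13; limma, adjusted p = 0.00764), but a log2 fold change of 0.15, not called, after correction for transcript GC content and length. ATP5MC3 had 93.7, 89.4 and 182 TPM in siVCPIP1 and 243, 274 and 296 TPM in siControl (log2 fold change -1.22, SE 0.26; limma, adjusted p = 0.00190), but 0.0013 after median-of-ratios scaling and 0.88, called higher, after correction for transcript GC content and length. ATP5MC3 made up 6.43% ± 3.11 of the summed TPM of the 3 genes in siVCPIP1 and 17.7% ± 2.001 in siControl (SD, n = 3 each), without overlap. The ratio of ATP5MC1 to ATP5MC2, the more alike pair in sequence, was 0.559 ± 0.0310 in siVCPIP1 and 0.588 ± 0.0477 in siControl and overlapped. The sources used here do not give how reads that match more than one of the 3 genes were counted. The same holds for ATP5MF and NDUFC2, which share exons with readthrough genes listed separately.

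Because TPM is a share and the groups differed over the whole distribution, each call was followed under other ways of scaling the libraries. Median-of-ratios scaling moved the median of all tested genes to -0.14, from -1.12 on TPM as deposited, and quantile normalization moved it to 0.04. With a smooth trend on GC content and length taken out of each library it was 0.07 with whole transcripts and 0.10 with coding sequences. Relative to those medians the subunits as a whole lay 0.43 above on TPM as deposited and 0.66 above when scaled by median of ratios. They lay at -0.38 after quantile normalization, and at -0.03 and 0.39 after the whole-transcript and coding corrections. On TPM as deposited their position also moved with the added TPM and the filter. It was 0.67 with 0.1 TPM added in place of 1, 0.23 with a filter of 5 TPM and -0.087 without a filter. The position of the subunits relative to other genes thus had no one direction.

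The counts of calls shifted with these settings. After median-of-ratios scaling 44 of the 79 subunits were called higher and 19 lower, with 85.4% of tested genes called, 40.3% higher and 45.1% lower. After quantile normalization 25 were higher and 41 lower, against 42.2% and 38.8% of tested genes. After the whole-transcript correction 33 were higher and 19 lower, with 68.8% of tested genes called, 37.2% higher and 31.6% lower. After the coding correction 43 were higher and 20 lower, with 73.8% of tested genes called, 40.2% higher and 33.5% lower.

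Complex II kept one direction. Its median lay at -1.37 relative to all genes on TPM as deposited, and at -1.14, -2.09, -1.07 and -1.28 under the other settings in the same order, with none of its subunits called higher. Complex I lay above the median of all genes by 0.90 on TPM as deposited, by 1.15 under median-of-ratios scaling and by 0.61 after the coding correction, but at -0.16 after quantile normalization and -0.05 after the whole-transcript correction. Complexes III, IV and V likewise changed sides between settings.

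**Figure D4:**
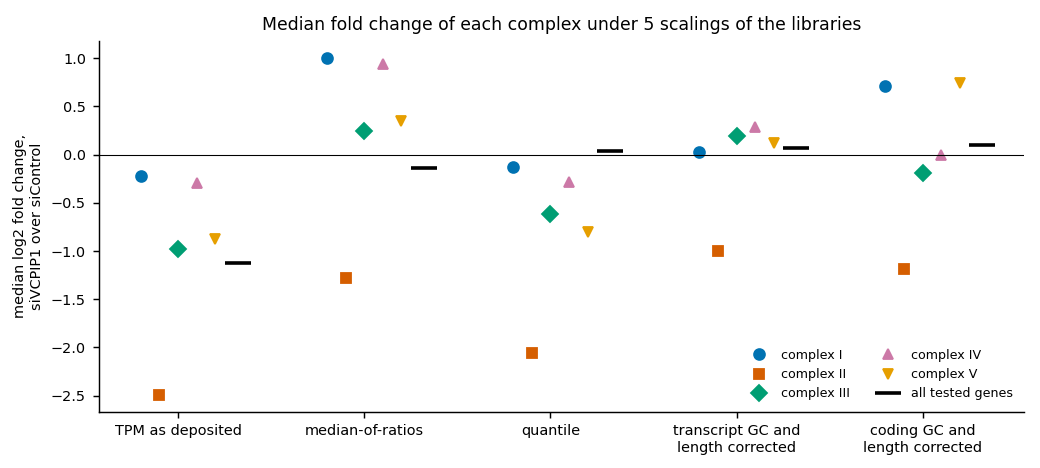
Median log2 fold change (vertical axis, siVCPIP1 over siControl) of the tested subunits of each complex and of all tested genes (black bars), for TPM as deposited and 4 other ways of scaling or correcting the libraries (horizontal axis). Complex II lies under the median of all tested genes under each of the 5 settings, between -1.003 and -2.49, and the other 4 complexes change sides.

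Single subunits that were called the same way under all 5 settings numbered 27. The 15 called higher were NDUFV1, NDUFS7, NDUFS8, NDUFV3, NDUFS6, NDUFA3, NDUFA13, NDUFB7 and NDUFB11 of complex I, UQCRC1 and UQCRQ of complex III, COX5B and COX6B1 of complex IV, and ATP5F1D and ATP5MC2 of complex V. The 12 called lower were NDUFS1, NDUFB6, NDUFC1 and NDUFC2 of complex I, SDHB, SDHC and SDHD of complex II, UQCRC2 of complex III, COX7A2L of complex IV, and ATP5F1A, ATP5F1B and ATP5PB of complex V. They are 19.0% and 15.2% of the 79 tested subunits, against 10.7% and 19.4% of 10917 tested genes. All 5 settings use the same 6 libraries and do not show how far a call rests on single libraries. On TPM as deposited the calls of NDUFV3 and COX5B were each lost on leaving out any of 4 of the 6. The call turned to the opposite direction under at least 1 other setting in 21 subunits (26.6%), against 26.3% of tested genes. Of the 22 subunits called higher on TPM as deposited, 16 were also called higher after the whole-transcript correction, 21 after the coding correction and 21 after quantile normalization.

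The fold changes of the subunits moved with the GC content of their transcripts. Across the 79 tested subunits, the log2 fold change correlated with transcript GC content at r = 0.764 and rho = 0.781, and with coding GC content at r = 0.659 and rho = 0.700. Within complex I these were 0.860 and 0.877 for transcript GC over 36 subunits. Over all 10917 genes they were 0.725 and 0.737, so the relation to GC content is that of the whole table. With log2 transcript length, r was -0.416 over the subunits and -0.303 over all 10917 genes. With the siControl level as log2(TPM + 1), r was 0.316 over the subunits and 0.064 over all 10917 genes. Within complex I the latter was 0.530, and within complex V 0.112. All of these are descriptions across genes of the same 6 libraries. Of the 31 subunits with a coding GC content under 50%, none was called higher and 27 (87.1%) were called lower, against 0.620% and 95.04% of the 4358 tested genes under 50%. Of the 13 with 60% or more, 10 (76.9%) were called higher and none lower, against 36.6% and 29.97% of all tested genes of that range, and their median log2 fold change was 0.93, against 0.13 for all tested genes of that range. The median coding GC content was 59.0% in subunits called higher, 48.6% in those called lower and 56.1% in those called neither.

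Within complex II the order of the fold changes was that of transcript GC content, 41.0% in SDHD, 42.6% in SDHC, 48.6% in SDHB and 55.1% in SDHA (r = 0.952 and rho = 1 over 4 genes, a description). It was not that of coding GC content (r = 0.241 and rho = 0.2): SDHD, with 53.5%, lay at -4.10, whereas the 22 subunits of 50% to 55% had a median of -0.99 and all tested genes of that range a median of -1.19. With the whole transcript's trend removed, the log2 fold changes were -1.74 for SDHD, -1.19 for SDHC, -0.81 for SDHB and -0.57 for SDHA, each called lower, and with the coding trend removed they were -3.36, -1.80, -0.57 and -0.24, of which SDHA was not called. Transcript GC content is that of 1 annotated transcript per gene, whose use in these cells was not examined. For SDHC that transcript has 13566 bases, of which 507 are coding. What sets the relation to GC content was not tested.

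**Figure D5:**
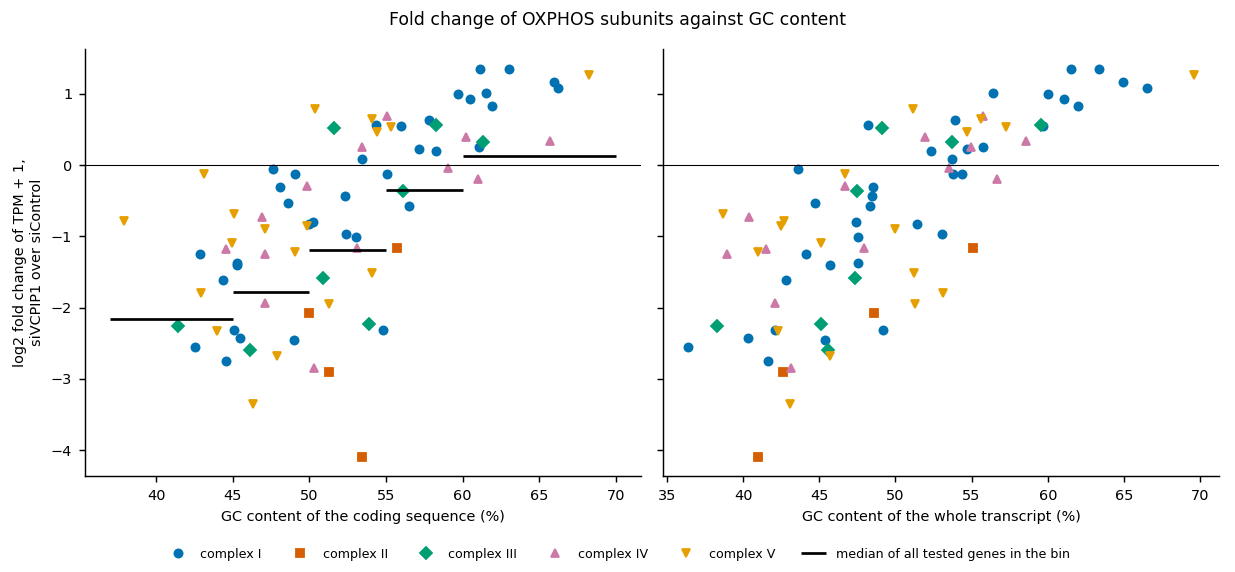
Log2 fold change of TPM + 1 (vertical axis, siVCPIP1 over siControl) against the GC content of the coding sequence (left) and of the whole transcript (right) for the 79 tested subunits, marked by complex, with the median of all tested genes in each range of coding GC content as a black line. Subunits under 50% coding GC lie below 0, those over 60% mostly above it, and SDHD lies lowest.

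Nuclear OXPHOS genes are known targets of the transcription factors NRF1, GABPA and YY1, and the promoters of the subunits were searched for their motifs as letters. Of the 83 subunits, 67 had a window of 300 bases (250 before the start, 50 after) in RefSeq on GRCh38.p14, read on both strands. The NRF1 motif GCGCANGCG was in 22 windows (32.8%), against 15.6% of 8870 tested genes and 8.05% of all 27305 windows. The ETS motif bound by GABPA, CCGGAAG, was in 20 (29.9%), against 20.8% and 10.7%, and the YY1 motif AAGATGGCG was in 8 (11.9%), against 4.35% and 1.85%. The SP1 motif GGGCGG was in 42 (62.7%), against 71.3% and 44.6%. By complex, the NRF1 motif was in 8 of 31 windows of complex I, 2 of 3 of complex II, 4 of 7 of complex III, 2 of 12 of complex IV and 6 of 14 of complex V. The 67 windows include that of COX8C, which was under the filter and so is not among the tested genes. It holds the NRF1 motif and is among the 2 of complex IV. A match of letters is a description and not a binding site.

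The wider pathway was read from lists chosen with earlier results of these data known. The nuclear subunits whose symbols fall outside the naming rule moved apart: CYC1, the haem-carrying cytochrome c1 of complex III, had 1334 ± 83.4 TPM in siVCPIP1 and 916 ± 137 TPM in siControl (log2 fold change 0.55; limma, adjusted p = 0.00480), and NDUFAB1, the acyl carrier protein of complex I, had 55.2 ± 41.8 TPM in siVCPIP1 and 261 ± 19.8 TPM in siControl (log2 fold change -2.46; limma, adjusted p = 0.000489; SD, n = 3 each). After correction for transcript GC content and length CYC1 lay at 0.0062 and was not called (limma, adjusted p = 0.954), while NDUFAB1 was still called lower at -1.24. CYCS, the soluble carrier cytochrome c, had 11.6 ± 2.48 TPM in siVCPIP1 and 56.4 ± 6.82 TPM in siControl (SD, n = 3 each; log2 fold change -2.20), but a log2 fold change of -0.018, not called, after the same correction. Of 52 assembly factors, proteins that build the complexes without staying in them, 10 were called higher and 34 lower, with a median log2 fold change of -0.94, again against -1.12 for all tested genes. Among all tested genes 15.0% were called higher and 66.0% lower, so these counts are near the common outcome. Over all 65 tested genes of these lists the 12 higher and 44 lower calls on TPM as deposited became 32 and 13 after the whole-transcript correction.

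By complex, the assembly factors called higher and lower were 1 and 11 of 16 for complex I, 1 and 2 of 4 for complex II, 3 and 3 of 6 for complex III, 4 and 15 of 21 for complex IV and 1 and 3 of 5 for complex V. The shares over all tested genes were 15.0% higher and 66.0% lower. For complex II, SDHAF3 had 4.44 ± 2.90 TPM in siVCPIP1 and 45.6 ± 7.20 TPM in siControl (log2 fold change -3.21; limma, adjusted p = 3.45e-05), and SDHAF1, which like SDHAF3 serves the iron-sulphur subunit SDHB, had 70.9 ± 4.01 TPM in siVCPIP1 and 33.1 ± 2.81 TPM in siControl (log2 fold change 1.08; SD, n = 3 each). For complex IV, COX11, a copper chaperone, had a log2 fold change of -3.21 and LRPPRC, which stabilises mitochondrial mRNAs, one of -3.06. Among 10 tested regulators of mitochondrial biogenesis, 8 were called lower on TPM as deposited, against 66.0% of all tested genes, including TFB2M (-3.07), YY1 (-2.66), GABPB1 (-2.63) and TFAM (-2.44), and the mitochondrial RNA polymerase POLRMT alone was called higher (0.79). After correction for transcript GC content and length TFB2M (-0.72) and YY1 (-1.20) were still called lower. GABPB1 (-0.41), TFAM (-0.25) and GABPA (0.16) were then not called, and NRF1 (0.89) was called higher. TFAM and GABPA averaged 0.57 and 0.34 TPM in siVCPIP1 and 7.56 and 4.61 TPM in siControl. At such levels the added 1 shrinks a fall, as for VCPIP1. Their corrected values therefore cannot show whether they were reduced.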

How the data were processed

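RNA of AsPC-1 cells was sequenced 48 h after transfection with siVCPIP1 (3 libraries) or siControl (3 libraries). The deposited table gives TPM (length-corrected, 1000000 per library) computed by the authors per gene symbol, per the file headers. The genome build was GRCh38.p13 according to the submitters' processing notes. The sources used here do not give the aligner, counting tool, annotation or strand setting. Read numbers cannot be had from TPM, so depth is unknown and no counting interval is given.

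The 10966 genes averaging 1 TPM or more were tested on log2(TPM + 1) by limma 3.58.1 (R 4.3.3; two-sided, eBayes with trend), with Benjamini-Hochberg adjustment over all of them and a threshold of 0.05. The fit was tested on simulated data in which few genes changed, with rises and falls in balance. That setting does not cover a shift of most genes, as found here. Alternatives were pseudocounts, filters, median-of-ratios scaling, quantile normalization, a replicate block, leaving out each library, and removal from each library of a spline on the GC content and length of 1 GENCODE release 29 transcript per gene (10917 genes). That transcript was picked by its annotation rank, and among equals the longest was taken, so it can hold much untranslated sequence. The spline correction on the coding part alone was added after seeing the data.

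The members and gene lists were chosen with earlier results of these data known. Genes named by rule were VCPIP1, core subunits, isoform sets, ATP5IF1, each complex's largest called rise and fall and its highest siControl level, members whose called direction turned, and up to 4 called genes per list. A gene of that rule is not reported here by name. Further names and all ratios were chosen after their values were seen. Correlations across genes are descriptions, since genes of 1 library are not independent.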

Additional observations from a re-analysis of the deposited data

How the results depend on the processing

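Direction depended mainly on how libraries were scaled. After median-of-ratios scaling 4416 genes and 44 subunits were called higher and 19 subunits lower. The median log2 fold changes were 0.52 for all subunits, 1.01 for complex I, -1.28 for complex II, 0.25 for complex III, 0.94 for complex IV and 0.35 for complex V. The log2 ratios of summed levels were 1.23 for all subunits, 1.63 for complex I, -0.70 for complex II, 0.79 for complex III, 1.28 for complex IV and 0.80 for complex V. After quantile normalization 4625 genes were called higher and 4258 lower, with medians of -0.35 for all subunits and -0.61 for complex III. After the transcript GC and length correction 4062 genes were called higher and 3449 lower, with 19 subunits lower. The medians were then 0.040 for all subunits, 0.023 for complex I, -1.003 for complex II, 0.19 for complex III, 0.28 for complex IV and 0.13 for complex V, and VCPIP1 lay at 0.26. After the coding GC and length correction, chosen after seeing the data, 4392 genes were called higher and 3661 lower, with 43 subunits higher and 20 lower. The medians were then 0.49 for all subunits, 0.71 for complex I, -1.18 for complex II, -0.19 for complex III, -0.0082 for complex IV and 0.74 for complex V, and VCPIP1 lay at 0.28. Of 65 other OXPHOS genes, 12 were called higher and 44 lower on TPM as deposited, 26 and 29 under median-of-ratios scaling, 27 and 22 under quantile normalization, 32 and 13 after the transcript correction, and 28 and 20 after the coding correction. A filter of 5 TPM left 4679 genes called lower because fewer were tested, and without a filter the median of complex III, then with UQCRHL, was -0.45. Otherwise the cause was not tested. Depth, unknown here, limits low genes such as VCPIP1 and NDUFS1. The added 1 TPM also shrinks the falls of low genes before any correction. An example is LYRM7, with 0.55 TPM in siVCPIP1 and 2.76 TPM in siControl.

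Log2 fold changes of named genes with the opposite sign to TPM as deposited were 1.10 for NDUFS3, 0.068 for SDHA, 0.064 for COX5A, 0.34 for ATP5PO, 1.20 for COX6A1, 1.01 for COX6B2, 0.94 for COX7A2, 0.035 for COX7B, 0.0013 for ATP5MC3, 0.52 for ATP5F1E, 0.79 for NDUFA6, 0.38 for NDUFA8, 0.40 for NDUFA10, 0.65 for NDUFB2, 0.70 for NDUFB4, 0.86 for UQCR10, 0.49 for NDUFA4, 0.14 for ATP5PD, 0.36 for ATP5MG, 0.44 for ATP5MK, 0.30 for SDHAF4 and 0.44 for UQCC1 after median-of-ratios scaling. After quantile normalization they were 0.54 for COX6B2, -0.061 for NDUFB9, 0.65 for SDHAF4, 0.063 for LYRM7 and 0.12 for TMEM242. After the transcript correction they were 0.28 for COX5A, 0.040 for COX6B2, 0.94 for COX7A2, 1.18 for COX7B, -0.39 for COX8A, 0.88 for ATP5MC3, 1.63 for ATP5F1E, 0.019 for NDUFS4, 0.91 for NDUFA6, 0.83 for NDUFA10, 0.71 for NDUFB2, 0.34 for NDUFB3, 0.84 for NDUFB4, 0.90 for UQCR10, 1.70 for NDUFA4, 1.20 for COX7C, 0.099 for ATP5PD, 1.41 for ATP5MG, 0.65 for ATP5MK, 0.46 for NDUFAF4, 0.41 for NDUFAF7, 1.22 for SDHAF4, 0.87 for LYRM7, 0.39 for UQCC1, 0.12 for ATPAF1 and 0.57 for TMEM242. After the coding correction they were 0.55 for NDUFS3, 0.73 for NDUFV2, 0.96 for ATP5PO, 0.82 for COX7A2, 0.49 for COX7B, -0.055 for COX8A, 0.15 for ATP5MC3, 0.57 for ATP5F1E, 0.49 for NDUFS4, 0.37 for NDUFA6, 0.52 for NDUFA12, 0.49 for NDUFA8, 0.73 for NDUFA10, 0.71 for NDUFB3, 0.87 for NDUFB4, 0.62 for NDUFA4, 0.92 for ATP5PD, 0.19 for ATP5MG, 0.98 for ATP5MK, 0.21 for NDUFAF1, 0.34 for NDUFAF4, 0.28 for NDUFAF7, 0.53 for SDHAF4, 0.71 for LYRM7 and 0.91 for UQCC1.

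Whether the replicate numbers pair the samples is not stated in the labels. The deviations of same-numbered libraries from their group means correlated at 0.531, -0.267 and 0.164, which with 3 libraries a group cannot decide it. With the replicate block 23 subunits were called higher and 46 lower, against 22 and 45 without it. COX8A was then called higher and FMC1 no longer, and no other named call changed under the block. Without each library in turn, 18 to 22 subunits were called higher and 41 to 48 lower, and 0 higher and 4 lower in complex II each time. Medians ran from -0.34 (without siVCPIP1 replicate 3) to -0.15 for complex I and from -1.24 (without siVCPIP1 replicate 3) to -0.82 for complex III. The log2 fold change of COX6A1, not called, ran between -0.076 (without siControl replicate 3) and 0.019 (without siVCPIP1 replicate 2). Calls lost on leaving out 1 library were those of COX4I1 (6 of 6 libraries, log2 fold change 0.21 to 0.29), COX7A2 (5, -0.36 to -0.24), UQCR10 (5, -0.48 to -0.31), COX5B (4, 0.29 to 0.48), NDUFV3 (4, 0.48 to 0.69), NDUFA6 (4, -0.57 to -0.35), FMC1 (4, 0.32 to 0.53), NDUFB2 (3, -0.76 to -0.41) and SDHAF4 (1, -0.94 to -0.61). Without the eBayes trend, COX4I1, COX7A2 and UQCR10 also lost their calls.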

Other observations

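Some proportions between the mRNAs of subunits of a complex were described without a test and were chosen after their values were seen. The inhibitor ATP5IF1 stood at 0.162 ± 0.0118 of the catalytic subunit ATP5F1B in siVCPIP1 and 0.121 ± 0.0165 in siControl (SD, n = 3 each), without overlap. Both genes were called lower on TPM as deposited, but ATP5IF1 was not under median-of-ratios scaling (-0.29). ATP5F1A stood at 0.0796 ± 0.00624 of ATP5F1B in siVCPIP1 and 0.134 ± 0.00526 in siControl (SD, n = 3 each), also without overlap, while their proteins are present in equal number in the F1 head. COX5A stood at 0.186 ± 0.0636 of COX5B in siVCPIP1 and 0.538 ± 0.118 in siControl (SD, n = 3 each). NDUFV2 stood at 0.0957 ± 0.0526 of NDUFV1 in siVCPIP1 and 0.441 ± 0.0744 in siControl (SD, n = 3 each). The GC and length corrections bring both pairs closer. After the transcript correction the log2 fold changes were 0.28 for COX5A, 0.62 for COX5B, -0.10 for NDUFV2 and 0.56 for NDUFV1. After the coding correction they were -0.40, 0.36, 0.73 and 1.15 in the same order.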
